A study of Danio rerio with 10 samples.

Results

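The 9 genes described here are stress-response and immediate early genes measured in zebrafish earl grey (egy) mutant embryos. They are atf3, clu, socs3b, stat3, fosab, junba, junbb, egr1 and vmp1. They were selected on measured values of these same arrays, so every value of theirs that sets mutants against siblings is a description and carries no test. All probe sets annotated with 1 of these symbols and no other were taken, which gave 13 probe sets (4 for fosab, 2 for egr1 and 1 for each other gene) of 15502, and 9 genes of 8793 on the array. All 13 lay above the filter on low signals, and the lowest of them had a mean signal of 1046.

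The embryos came from matings of adult egy heterozygotes that carry the cz3 allele in the AB/WIK background. The defect is recessive and lies in the orthologue of human p110 (sart3), a protein that helps to rebuild splicing snRNPs. Embryos were sorted by appearance into mutants and normal-looking siblings, so the sibling pools, called wild-type in the labels, may hold heterozygotes. The 4 groups were mutants on day 3 (2 pools), siblings on day 3 (2 pools), mutants on day 5 (3 pools) and siblings on day 5 (3 pools), with RNA of pooled whole embryos and 1 pool per array. In whole embryos, a change in the number of cells that express a gene and a change in RNA per cell cannot be told apart.

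Immediate early genes are transcribed within minutes of a stimulus, without new protein synthesis. Many encode transcription factors of the AP-1 family, in which Fos proteins (fosab) pair with Jun proteins (junba, junbb), or zinc finger factors such as egr1. ATF3 is a related leucine zipper factor that mammalian cells switch on under many kinds of stress, downstream of ATF4 or p53 among others. In cytokine signalling, receptors activate JAK kinases, which phosphorylate STAT3. STAT3 then enters the nucleus and induces targets that include SOCS3, an inhibitor of the same kinases. Phosphorylation is not seen in transcript levels. Clusterin (clu) is a secreted chaperone that binds misfolded proteins outside cells, and VMP1 is a membrane protein of the endoplasmic reticulum needed to form autophagosomes.

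Some labels of the series conflict. The strain label of sibling replicate 2 of day 3 says mutant, although that pool had a sart3 signal of 2516.5 and its Spearman correlation was 0.988 with the other sibling pool of day 3 and at most 0.981 with a mutant pool. For mutant replicate 3 and sibling replicate 2 of day 5 the source label says day 4, and the series text gives 3 and 4 days. The titles were followed. Many, but not all, of the calls and directions that changed when pools with a conflicting label were left out are named beside the result. The sart3 signal lay between 104.9 and 809.3 in the mutant pools and between 1771.4 and 2585.9 in the sibling pools. The highest mutant signal was that of replicate 3 of day 5. Array medians were 596 to 671, and Spearman correlations within groups were 0.968 to 0.988. The ratio of 3′ to 5′ control signals for GAPDH, a sign of RNA length, was 1.68 to 1.88 in mutants and 1.71 to 1.88 in siblings on day 3, and 1.31 to 1.5 in mutants and 1.27 to 1.41 in siblings on day 5. The same ratio for acta1 was 1.78 to 2.21 in mutants and 1.76 to 2.25 in siblings on day 3, and 3.9 to 5.99 in mutants and 5.28 to 9.24 in siblings on day 5. The acta1 ratio was higher on day 5 in every pool, while the GAPDH ratio was lower on day 5 in every pool. The part of either ratio in differences between the days, or between mutants and siblings, was not tested. Markers of muscle, liver, lens, blood, skin and neurons were present in all groups, and none was listed at 0.

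The first question was which of the 9 genes already differed on day 3. None passed the threshold there (limma, adjusted p under 0.05). Of all 11626 probe sets tested, 1.18% passed as higher and 0.886% as lower in mutants. In 7 of the 9 genes the log2 difference was above 0, and their median was 0.23, against −0.03 over all probe sets. By the brightest probe set of each gene, only stat3 and clu had mutant signals that did not overlap those of siblings, both higher. That is 2 of 9 genes, beside 21.0% of all probe sets, which is near the background. A log2 difference is here the difference of group means of log2(signal + 65) with the model's standard error, and a fold is a ratio of mean signals.

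On day 5, 6 of the 9 genes passed the threshold as higher in mutants, namely clu, atf3, socs3b, stat3, junbb and vmp1, and none as lower. Among all probe sets 6.49% passed as higher and 8.15% as lower. The same 6 genes had no overlap between mutant and sibling pools, as had 15.1% of all probe sets in the direction of mutants. Since the genes were chosen by this comparison, nothing is read from these shares. The median log2 difference of the 9 genes was 0.79 on day 5, against −0.01 over all probe sets.

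**Figure D1:**
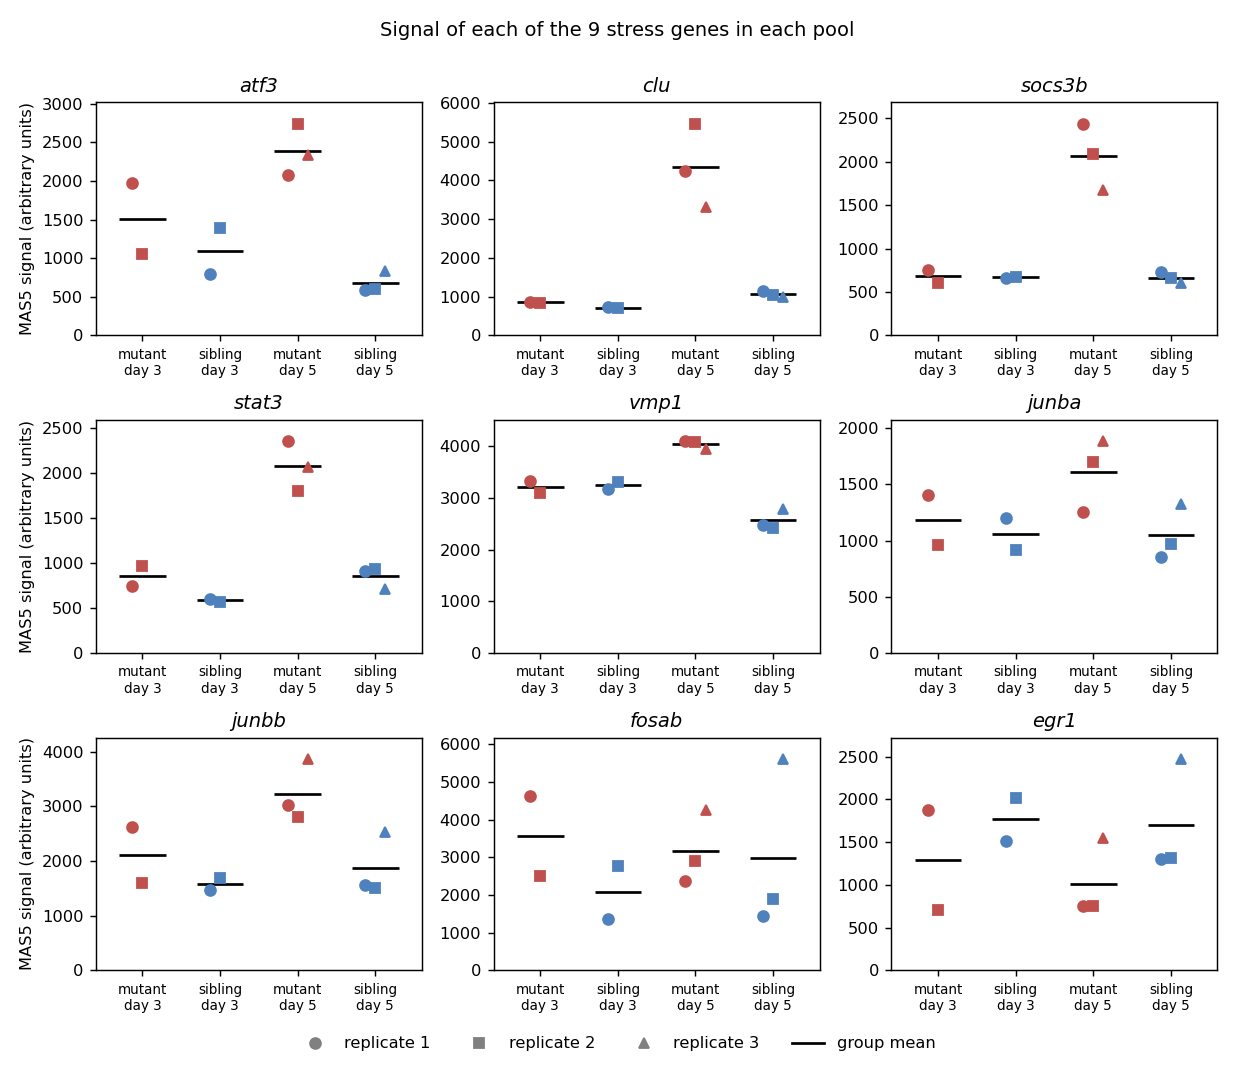
MAS5 signal in arbitrary units (vertical axis, from 0) of each gene in every pool of the 4 groups; red points are mutant pools, blue points sibling pools, shapes mark replicate numbers and bars are group means. On day 5 the mutant pools of atf3, clu, socs3b, stat3, vmp1 and junbb lie above all sibling pools, while those of junba, fosab and egr1 overlap them.

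clu, the secreted chaperone, showed the widest gap of the 9. Its signal was 4235.4, 5465.9 and 3320.3 in mutant pools of day 5, against 1154.4, 1035.5 and 990.0 in sibling pools. On day 3 it was 864.8 and 831.5 in mutants, against 729.7 and 697.8 in siblings. The pools did not overlap on either day, but the mutant mean was 1.19-fold the sibling mean on day 3 and 4.10-fold on day 5. The log2 difference was 0.23 ± 0.19 on day 3 and 1.94 ± 0.16 on day 5 (SE), and the day 5 value ranked 27 from the top of 11626 probe sets. From day 3 to day 5 the mean signal of clu grew 5.12-fold in mutants and 1.49-fold in siblings.

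atf3, the stress-induced transcription factor, had signals of 2083.4, 2744.4 and 2333.0 in mutants on day 5, against 590.6, 599.7 and 837.6 in siblings. On day 3 the values were 1970.5 and 1049.9 in mutants, against 788.3 and 1392.0 in siblings. The day 3 groups overlapped, and 1 mutant pool lay below the higher sibling pool. Its log2 difference was 0.43 ± 0.29 on day 3 and 1.73 ± 0.24 on day 5 (SE), a fold of 3.53 on day 5. Leaving out 1 pool of day 3 gave −0.00014 (without mutant replicate 1) to 0.87 for that day. Both groups moved between the days. The mutant mean on day 5 was 1.58 times that of day 3, and the sibling mean was 0.620 times that of day 3, so the lower sibling mean of day 5 enters the gap of that day.

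The cytokine signalling pair of stat3 and socs3b is next. socs3b, the inhibitor, was level on day 3, with signals of 757.3 and 602.9 in mutants against 665.0 and 676.2 in siblings. On day 5 it reached 2441.1, 2086.8 and 1675.8 in mutants, against 729.5, 655.8 and 598.6 in siblings. All 3 mutant pools of day 5 stood apart from the other 7 pools of the experiment, whose highest signal was 757.3. Its log2 difference was 0.01 ± 0.19 on day 3 and 1.54 ± 0.15 on day 5 (SE), a fold of 3.13 on day 5.

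stat3, the transcription factor itself, had signals of 2351.8, 1796.9 and 2066.9 in mutants on day 5, against 907.8, 936.7 and 712.6 in siblings. On day 3 it had 740.6 and 966.4 in mutants, against 598.4 and 567.2 in siblings. Mutants were higher without overlap on both days. The log2 difference was 0.49 ± 0.18 on day 3 and 1.22 ± 0.15 on day 5 (SE), which is 1.46-fold and 2.43-fold. The day 3 value did not pass the threshold, and without mutant replicate 2 of that day it was 0.32.

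vmp1, the autophagosome gene, had the smallest moderated standard deviation of the 9 in the limma model, which pools all groups. Its mutant signals on day 5 were 4103.4, 4090.7 and 3955.4, against 2483.4, 2426.4 and 2788.2 in siblings. On day 3 they were 3331.9 and 3105.9 in mutants, against 3171.1 and 3318.4 in siblings. The day 3 groups overlapped and the day 5 groups lay far apart relative to their spread. Mutants minus siblings gave −0.01 ± 0.12 on day 3 and 0.65 ± 0.09 on day 5 (log2, SE), a fold of 1.58 on day 5. The day 3 value was −0.06 to 0.04 without 1 pool, and its direction turned in 4 of 21 alternative settings. As for atf3, the day 5 gap has 2 sides: the mutant mean was higher on day 5 than on day 3 (4050 ± 82.0, SD, n = 3, and 3219 ± 160, SD, n = 2), and the sibling mean was lower (2566 ± 195, SD, n = 3, and 3245 ± 104, SD, n = 2).

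Both junB genes, which encode partners of Fos in AP-1, were higher on average in mutants on day 5. junbb had 3016.1, 2812.0 and 3871.7 in mutants, against 1566.5, 1511.0 and 2537.7 in siblings, with no overlap. On day 3 it had 2616.0 and 1604.6 in mutants, against 1471.4 and 1696.3 in siblings, with overlap. Its log2 difference was 0.36 ± 0.26 on day 3 (0.02 without mutant replicate 1 of that day, 0.70 without replicate 2) and 0.79 ± 0.21 on day 5 (SE). The day 5 call was lost without mutant replicate 1 or 3, without sibling replicate 1 or 2 (0.66 to 1.03 over all pools left out in turn), and without both pools that a label puts on day 4 (0.53).

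junba had 1255.1, 1699.4 and 1886.1 in mutants on day 5, against 852.7, 965.5 and 1325.4 in siblings. The lowest mutant pool lay just under the highest sibling pool. On day 3 it had 1402.9 and 959.2 in mutants, against 1200.5 and 918.9 in siblings, again with overlap. Its log2 difference was 0.14 ± 0.25 on day 3 and 0.60 ± 0.20 on day 5 (SE). The day 3 direction turned without mutant replicate 1 (−0.12) or sibling replicate 2 (−0.05). The day 5 value was not called, but it was called with the replicate number as a block, and without mutant replicate 1 (0.76) or sibling replicate 3 (0.77) of that day.

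fosab, the Fos partner, did not separate the groups on either day. Its brightest probe set had 2370.4, 2904.3 and 4266.9 in mutants on day 5, against 1437.4, 1887.1 and 5620.5 in siblings. On day 3 it had 4637.7 and 2518.8 in mutants, against 1375.4 and 2782.7 in siblings. The highest and the lowest sibling pools of day 5 differed 3.91-fold, which is more than the gap between the group means (1.07-fold). Its log2 difference was 0.78 ± 0.52 on day 3 (0.29 to 1.28 without 1 pool) and 0.30 ± 0.43 on day 5 (SE). The day 5 direction turned without sibling replicate 1 (−0.08) and without both pools labelled day 4 (−0.12), and the value was 0.88 without sibling replicate 3. The other 3 probe sets gave 0.42 to 0.80 on day 3 and 0.48 to 0.57 on day 5, all above 0, and none was called. Of the 4 probe sets, 1 had no overlap on day 3 and none was free of overlap on day 5.

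egr1, the zinc finger factor, had lower means in mutants on both days. On day 5 its signals were 751.8, 748.1 and 1548.1 in mutants, against 1300.9, 1315.3 and 2477.3 in siblings. On day 3 they were 1872.3 and 704.2 in mutants, against 1519.6 and 2021.7 in siblings. The groups overlapped on both days, through mutant replicate 3 on day 5 and mutant replicate 1 on day 3. The log2 difference was −0.58 ± 0.43 on day 3 and −0.72 ± 0.35 on day 5 (SE), and the other probe set gave −0.31 ± 0.39 and −0.72 ± 0.31. Neither probe set was called on either day. The day 3 direction rested on mutant replicate 2, without which it was 0.09, and it was −1.24 without mutant replicate 1. On day 5 the value was −0.42 without sibling replicate 3 and −1.19 without both pools labelled day 4. egr1 was the 1 gene of the 9 whose mean was not higher in mutants on day 5.

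**Figure D2:**
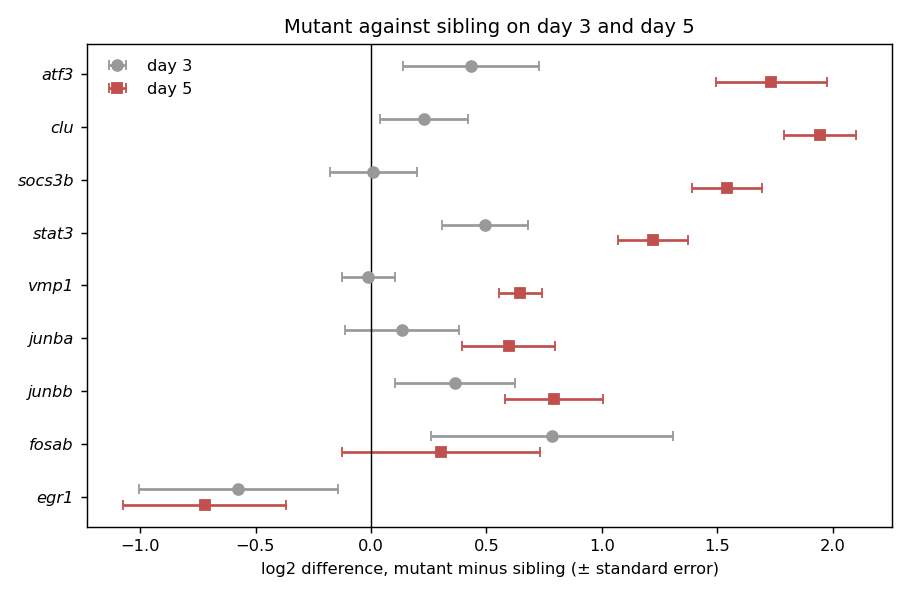
Log2 difference of mutants minus siblings (horizontal axis) for each gene on day 3 (grey circles, 2 pools a group) and day 5 (red squares, 3 pools a group), with bars of 1 standard error from the limma model. The day 5 value lies to the right of the day 3 value for all genes but fosab and egr1, and the error bars of those 2 genes are the widest.

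Whether a difference changed between the days is a separate comparison, the day 5 difference minus the day 3 difference. It was 1.71 ± 0.25 for clu, 1.53 ± 0.24 for socs3b, 1.30 ± 0.38 for atf3, 0.73 ± 0.24 for stat3 and 0.66 ± 0.15 for vmp1 (log2, SE). It was 0.46 ± 0.32 for junba, 0.43 ± 0.34 for junbb, −0.15 ± 0.56 for egr1 and −0.48 ± 0.68 for fosab. None of the 9 passed the threshold. Across the array 0 of 11626 probe sets (0.0%) passed in limma, and 771 had an unadjusted p under 0.05. With the replicate number as a block, 10 probe sets passed, among them those of clu and socs3b. Without mutant replicate 3 of day 5, the pool with the highest sart3 signal among mutants, 51 passed, and these 2 genes were again among them. Without both pools labelled day 4 it was 27, with the same 2 genes. Genes past the threshold on day 5 but not on day 3 are therefore not shown to differ between the days, and with 2 pools a group the day 3 comparison is the less precise.

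Within replicate numbers of day 5, the ratio of mutant to sibling signal for atf3 was 3.53 in replicate 1, 4.58 in replicate 2 and 2.79 in replicate 3. For clu it was 3.67, 5.28 and 3.35, for socs3b 3.35, 3.18 and 2.80, for stat3 2.59, 1.92 and 2.90, and for vmp1 1.65, 1.69 and 1.42. The junB genes kept 1 direction as well, with 1.47, 1.76 and 1.42 for junba and 1.93, 1.86 and 1.53 for junbb. For egr1 the ratio was below 1 in each replicate, at 0.578, 0.569 and 0.625. For the brightest fosab probe set it was 1.65, 1.54 and 0.759, so replicate 3 ran the other way. The other 3 fosab probe sets were above 1 in each replicate, at 1.09, 1.51 and 1.12 in replicate 3. Of all probe sets tested, 24.0% were higher and 26.0% lower in mutants in all 3 replicate numbers.

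The spread between pools of a group differed widely among the 9 genes. By the moderated standard deviation of the limma model, which is shrunk towards the trend, the fosab probe sets lay at percentiles 99.3 to 99.6 of all probe sets tested, those of egr1 at 98.2 and 99.0, and atf3 at 92.8. junbb followed at 86.0 and junba at 81.8. clu, socs3b and stat3 lay near the middle, at 53.7, 50.7 and 49.1, and vmp1 at 4.84. The order was not the same in every group: in day 5 mutants the highest clu signal was 1.65 times the lowest, a wider range than for atf3 (1.32), junbb (1.38) or junba (1.5).

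The transcription factor genes atf3, fosab, junba, junbb and egr1 were often high in the same pools. This pattern was noticed after the values were seen and is a description. Mutant replicate 1 of day 3 was the highest of its group for 5 of the 5 genes atf3, fosab, junba, junbb and egr1, sibling replicate 2 of day 3 for 4, mutant replicate 3 of day 5 for 4, and sibling replicate 3 of day 5 for 5. All 4 pools were highest together for fosab, junbb and egr1. The same held for 0 of the 4 genes clu, socs3b, stat3 and vmp1, and for 3.5% of all probe sets. Among 31 other AP-1 and immediate early genes tested, 7 (22.6%) showed it, namely egr4, ier2a, dusp1, btg2, gadd45ab, gadd45ba and ccn1. Sibling replicate 2 of day 3 is the pool whose strain label says mutant, and mutant replicate 3 of day 5 is 1 of those a label puts on day 4. How the pools were handled before RNA extraction is not given in the sources used here, and its part in this spread was not tested.

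**Figure D3:**
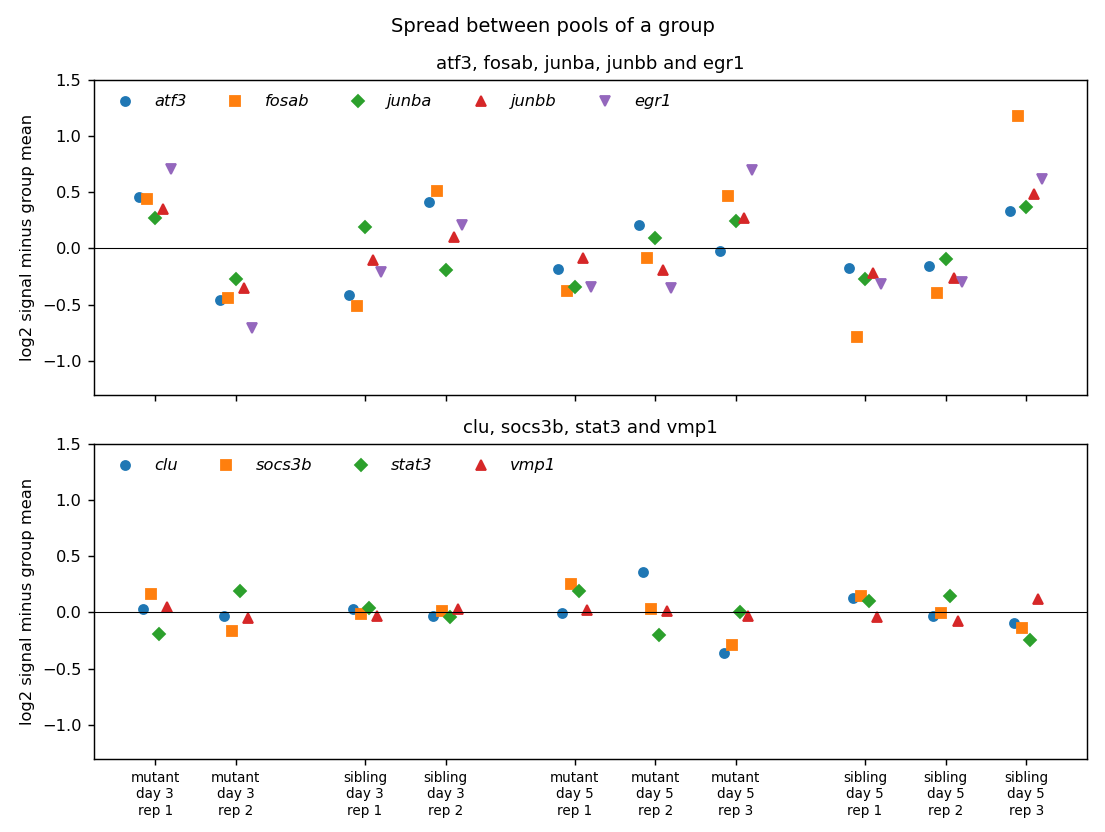
Log2 signal of each pool minus the mean of its own group (vertical axis, no pseudocount) for atf3, fosab, junba, junbb and egr1 (top) and for clu, socs3b, stat3 and vmp1 (bottom); each mark is 1 gene in 1 pool. Top-panel marks lie mostly above 0 in mutant replicate 1 and sibling replicate 2 of day 3 and in replicate 3 of both day 5 groups, and bottom-panel marks do not share this order.

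The course of these genes in normal-looking siblings shares its sibling signals with the comparisons that chose the genes, so it is a description as well. On day 5 against day 3, 8.39% of all probe sets were higher and 10.1% lower in limma, and 1 of the 9 genes, vmp1, passed as lower, which is near the background. Its difference was −0.33 ± 0.11 (log2, SE). That call stood in 8 of 21 alternative settings. It was lost under the replicate block, median centring and quantile normalization, without any 1 pool of day 3, without sibling replicate 1 or 2 of day 5, and without both pools labelled day 4.

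clu and stat3 had positive differences of 0.53 ± 0.17 and 0.49 ± 0.17 that did not pass. clu was called in 9 of the settings. Among them were the replicate block and the fits without mutant replicate 2 or 3 of day 5 or without both pools labelled day 4. stat3 was called in 4, among them the fit without sibling replicate 3 of day 5. atf3 had −0.61 ± 0.27 and socs3b −0.02 ± 0.17, and neither was called in any setting. The median over the 9 genes was −0.02, against −0.03 over all probe sets.

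The other genes of the same pathways were taken from 7 lists. Their counts stand beside 1.18% higher and 0.886% lower of all probe sets on day 3, and 6.49% higher and 8.15% lower on day 5. Of the AP-1 family, 7 of 18 listed genes were tested, and 4 of them are not among the 9 genes. On day 3 none of these 4 passed the threshold. On day 5, 2 were higher and none lower: fosl2, a Fos-related gene, and jun. fosl2 had 1305.4, 1164.8 and 1073.3 in mutants on day 5, against 755.5, 826.1 and 824.6 in siblings, without overlap (log2 0.52 ± 0.13, SE, limma adjusted p = 0.0204). jun had 5970.0, 7296.1 and 5626.5 in mutants, against 4344.9, 4552.6 and 4834.3 in siblings, also without overlap (log2 0.45 ± 0.13, SE, limma adjusted p = 0.0410). On day 3 jun had 4507.6 and 3814.4 in mutants, against 2633.0 and 3582.3 in siblings, again without overlap. That log2 difference of 0.43 ± 0.16 did not pass (limma adjusted p = 0.243) and was close to the one of day 5, with a difference between the days of 0.02. Neither day 5 call held in every fit that left out 1 pool. Over the 10 such fits the log2 difference was 0.45 to 0.58 for fosl2 and 0.34 to 0.52 for jun. fosl2 was lost without mutant replicate 1 or any 1 sibling pool of day 5 (adjusted p up to 0.0717), and jun without mutant replicate 1 or 2 or any 1 sibling pool (up to 0.137). Without both pools labelled day 4 jun was lost as well (0.0679). The median of the 4 was 0.48 on day 5 and 0.08 on day 3. jun was also higher on day 5 than on day 3 in siblings (log2 0.56, limma adjusted p = 0.0214).

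Of 40 other immediate early genes, 28 were tested and 27 are not among the 9. On day 3, 1 was higher and none lower. On day 5, 2 were higher and 2 lower, and the median was −0.03, against −0.01 over all probe sets. Both that were higher belong to the gadd45 family of growth arrest and DNA damage genes. gadd45aa had 681.7, 705.3 and 486.0 in mutants on day 5, against 246.4, 236.9 and 213.9 in siblings (log2 1.20 ± 0.19, SE, limma adjusted p = 9.7e-04). Its day 3 values of 758.2 and 503.7 in mutants, against 281.4 and 298.1 in siblings, also lay apart, with a log2 difference of 0.95 ± 0.23 that narrowly missed the threshold (limma adjusted p = 0.0533, and 0.0459 with the replicate block). gadd45bb was higher on day 3 (log2 0.89 ± 0.21, SE, limma adjusted p = 0.0458) and on day 5 (0.54 ± 0.17, limma adjusted p = 0.0475), at low signals of 122.6 to 446.2.

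The day 5 call of gadd45bb was lost without any 1 of the 10 pools (adjusted p 0.0579 to 0.177), with the replicate block (0.0618) and without both pools labelled day 4 (0.221). Its day 3 call was lost without any 1 pool of day 3 or any 1 sibling pool of day 5 (up to 0.286), and without both pools labelled day 4 (0.0601). dusp2, a MAP kinase phosphatase gene, was lower on day 5, with 580.5, 901.5 and 764.9 in mutants against 1504.4, 1526.7 and 1672.7 in siblings (log2 −1.02 ± 0.15, SE, limma adjusted p = 7.4e-04). In siblings dusp2 was higher on day 5 than on day 3 (log2 1.11 ± 0.17, SE, limma adjusted p = 0.0017). Its mutant means were 665 on day 3 and 749 on day 5. The difference between the days of mutants minus siblings was −0.97 ± 0.24 (log2, SE) and did not pass (limma adjusted p = 0.343). egr2b, a relative of egr1, was lower as well (−0.49 ± 0.15, limma adjusted p = 0.0486). This call was lost under the replicate block (0.0655), without both pools labelled day 4 (0.120) and in 9 of 10 fits that left out 1 pool (0.0368 to 0.168 over the 10). The calls of gadd45aa and dusp2 held in all 10 such fits.

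In the STAT3 pathway none of the 15 listed ligands and receptors was found on the array by symbol, so the cytokines upstream of stat3 are not analysed here. Of the kinases and STATs other than stat3, 4 of 12 listed genes were tested (jak1, jak2a, jak2b and stat5a), and none passed on either day. Their median was −0.07 on day 3 and −0.17 on day 5. Of the inhibitors other than socs3b, 8 were tested and none passed on either day, with medians of −0.15 and 0.09. socs3a, the other zebrafish SOCS3 gene, had 3218.5, 2964.5 and 3445.7 in mutants on day 5, against 1758.9, 1890.9 and 2543.2 in siblings. Its day 5 pools did not overlap, yet its log2 difference of 0.64 ± 0.25 did not pass (limma adjusted p = 0.108). On day 3 the value was −0.39 ± 0.30.

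For atf3, the related list held ATF4 and integrated stress response genes, which report on reduced translation initiation and amino acid or protein folding stress. Of these, 25 other genes were tested. On day 3 none was higher and 1 was lower, atf5a, a relative of ATF4. It had 1689.2 and 1270.2 in mutants, against 2465.6 and 2588.7 in siblings (log2 −0.76 ± 0.15, SE, limma adjusted p = 0.0215). The call was lost without mutant replicate 2 or either sibling pool of day 3 (adjusted p up to 0.218). On day 5, 2 of the 25 were higher and none lower, a share near that of all probe sets. With the replicate block 4 passed on day 5, the added ones being mthfd2, a mitochondrial folate enzyme, as higher and atf4b as lower. psat1, an enzyme of serine synthesis, had a log2 difference of 0.66 ± 0.12 (SE, limma adjusted p = 0.0035), a call that held without any 1 pool. eif2ak3, the kinase PERK of the endoplasmic reticulum, had 0.44 ± 0.11 (limma adjusted p = 0.0196). Its other probe set had the opposite sign, and its call was lost without replicate 1 or 2 of either day 5 group (up to 0.0713), and without both pools labelled day 4 (0.0517). atf4a itself did not pass (−0.25 ± 0.17, limma adjusted p = 0.363), nor did atf4b (−0.44 ± 0.20, limma adjusted p = 0.157, and 0.0262 with the replicate block). The list's median was −0.11 on day 3 and 0.05 on day 5.

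For vmp1, the list of autophagosome genes held 16 others that were tested. None passed on day 3. On day 5, 1 was higher and none lower. With the replicate block 3 were higher, the added ones being pik3c3, a lipid kinase of autophagy, and map1lc3b, which encodes a protein of the autophagosome membrane. The gene that passed without the block was sqstm1, which encodes the cargo receptor p62, with 2248.8, 2530.9 and 2097.6 in mutants against 1823.1, 1793.3 and 1592.4 in siblings (log2 0.39 ± 0.11, SE, limma adjusted p = 0.0328). It was lost in 7 of 10 fits that left out 1 pool: without any 1 sibling pool of day 5, mutant replicate 1 or 2 of day 5, or either sibling pool of day 3 (0.0216 to 0.128 over the 10). The median of the 16 was −0.06 on day 3 and 0.00 on day 5.

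**Figure D4:**
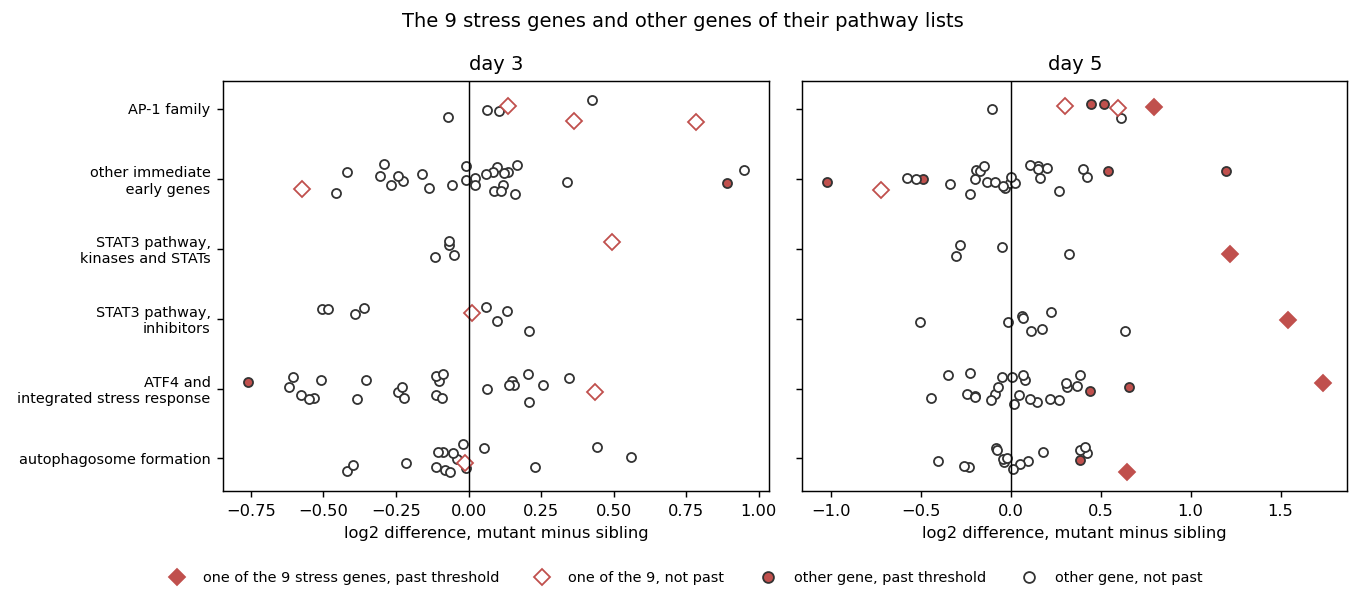
Log2 difference of mutants minus siblings (horizontal axis) on day 3 (left) and day 5 (right) for every tested gene of 6 pathway lists (rows, with vertical jitter); diamonds are genes among the 9, circles other genes, and filled marks passed the threshold. On day 5 stat3, socs3b and atf3 lie to the right of every other gene of their lists. The 9 genes were selected on measured values of these arrays, so nothing is read from this position. The other genes spread around 0 in all lists but the AP-1 family.

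Myeloid cells can express several of these genes, so their markers were summed. The 13 myeloid markers on the array summed to signals of 8821 to 8938 in mutants and 9383 to 11076 in siblings on day 3. On day 5 the sums were 8743 to 11654 in mutants and 10118 to 12335 in siblings. The ranges did not overlap on day 3, with mutants lower, and overlapped on day 5. The part of myeloid cells in the differences of the genes described here was not tested. Of the 10 myeloid markers tested, none passed on day 3. On day 5 none was higher and 1 was lower, cxcr4b, a chemokine receptor gene (log2 −0.66 ± 0.17, SE, limma adjusted p = 0.0201), a call lost without any 1 sibling pool of day 5 (up to 0.0802) or without both pools labelled day 4 (0.0916). With the replicate block, 2 more passed on day 5: mmp9, a metalloproteinase gene, as higher (log2 0.71 ± 0.28, limma adjusted p = 0.109 without the block and 0.0109 with it), and lyz, the lysozyme gene, as lower (−0.74 ± 0.24, limma adjusted p = 0.0588 and 0.0120).

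Sums of other tissue markers, in which the brightest genes weigh most, differed between some groups. On day 3 they did not overlap for 6 tissues, yet none of the tested markers of these tissues passed the threshold on that day. With the replicate block, the liver marker cp (limma adjusted p = 0.0467) and the erythroid marker alas2 (0.0140) passed on day 3. With 2 pools a group, 21.0% of all probe sets had no overlap and were higher in mutants on day 3. Mutants had the higher sums for skeletal muscle (438944 to 458252, against 386474 to 413630 in siblings), liver (120654 to 121587, against 103385 to 106599) and lens (94337 to 97816, against 85962 to 91183). They also had the higher sums for erythroid cells (68936 to 77273, against 55663 to 58402) and skin (141591 to 149799, against 125548 to 126938), and the lower ones for neurons (40490 to 40929, against 46931 to 50519). On day 5 the lens sums (83377 to 102678 in mutants, against 105105 to 125254 in siblings) and the neuron sums (39570 to 42928, against 50513 to 54966) did not overlap, both lower in mutants. The other sums overlapped on day 5. Of single markers, the lens genes bfsp2 and cryba4 were lower on day 5 (log2 −0.89 and −0.39, limma adjusted p = 0.0018 and 0.0234), and so was fabp10a, a liver fatty acid binding protein gene (−3.13, limma adjusted p = 9.8e-05). No other liver marker passed on day 5, and the median log2 difference of the 4 tested was −0.11. With the replicate block cp passed on day 5 as well (limma adjusted p = 0.0216, and 0.0512 without it). The cryba4 call was lost without replicate 1 or 2 of either day 5 group (adjusted p up to 0.0869). The neuron gene stmn1b was lower as well (−0.61, limma adjusted p = 6.9e-04), a call that held in all 21 settings. ckma, a muscle gene, was higher (0.27, limma adjusted p = 0.0442). That call was lost with the replicate block (0.102), without both pools labelled day 4 (0.159) and in 9 of 10 fits that left out 1 pool. The part of tissue makeup in the differences of the 9 genes was not tested.

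The genes whose profiles over the 10 arrays were most like those of atf3, clu and socs3b were found by the root mean square (RMS) difference between log2 profiles, each centred on its own mean. The smaller the value, the more alike are the profiles. For atf3 they were serpinh1b, a collagen chaperone (0.315), kiaa0232 (0.347) and ccng1, which encodes cyclin G1 (0.353), where the median over all genes was 0.784. Since these genes were found by their likeness to atf3 over the same arrays, their differences are given with no test. For ccng1 the log2 difference of mutants minus siblings was 0.94 ± 0.11 on day 3 and 1.23 ± 0.09 on day 5, and for serpinh1b it was 0.68 ± 0.17 and 1.41 ± 0.14 (SE).

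For clu the nearest were socs3b (0.386), stat3 (0.460) and anxa2a, an annexin gene (0.477), where the median was 1.05. For socs3b they were zgc:174888 (0.264), stat3 (0.283) and hsc70, a heat shock cognate gene (0.293), where the median was 0.748. On day 5 the log2 differences of anxa2a, hsc70 and zgc:174888 were 0.86 ± 0.12, 0.94 ± 0.12 and 1.11 ± 0.16 (SE), which their choice by profile favours.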

How the data were processed

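Whole-embryo RNA of 10 pools was measured on Affymetrix zebrafish arrays, 1 per pool. The table that the authors deposited holds a linear signal intensity for each probe set and array, computed with MAS5 per the submitters' processing notes. Its version, scaling target and detection calls are not stated in the sources used. Trimmed means of the arrays ran from 1493 to 1496, so the values were kept as they were, and each difference stands against the array's other probe sets. Of 15617 probe sets, 115 controls were left out. Of the others, 10795 carried 1 symbol in the platform annotation, 135 several and 4572 none. In all, 10711 matched a RefSeq gene table, and 1 symbol was updated. No coordinates are printed because the build is not stated.

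The scale was log2(signal + 65), with 65 standing for 10% of the median signal (648), so log2 differences of dim probe sets are understated. Probe sets in the lowest 25% by mean (limit 232) were dropped, leaving 11626 of them and 7287 genes. With limma 3.58.1 in R 4.3.3, all arrays were fitted with 4 group means and a mean-variance trend (6 residual and a median of 6.51 prior degrees of freedom). Benjamini-Hochberg adjustment ran across every probe set left, and the threshold was 0.05. The scripts were tested on simulated data. Replicates are called biological in the labels. Each p-value sets a difference against the spread between pools within groups, estimated over all 4 groups and shrunk towards the trend. The number of arrays limits precision. Errors of log2 differences are standard errors, and errors of signals are SDs.

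The 9 genes, the pathway and marker lists and the rules were chosen with earlier results of these data known. The sibling comparison between days was planned as a test of the 9 genes, but it shares its sibling signals with their choice and is given as a description. A gene is shown by its brightest probe set. Of each list, up to 4 other genes per direction past the threshold on either day are named, and for atf3, clu and socs3b the 3 genes with the most similar profile. Of the list entries, 3 were matched through a synonym.

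On day 5, deviations from group means of same-numbered mutant and sibling pools correlated at 0.232, 0.265 and 0.229. Those of differently numbered pools correlated at −0.149 to −0.107. The numbers may therefore pair the pools of day 5, but the titles give replicate numbers only and do not state a pairing. On day 3 the value for same-numbered pools was −0.047, so the numbers are not shown to pair the pools of that day. Calls come from the fit without pairs unless another setting is named. The fit with a replicate block, which uses the number within each day, day 3 included, is an alternative. With it 7 of the 9 genes passed on day 5, against 6 without it. The other alternatives were 2 other pseudocounts, 2 other filters, median centring, quantile normalization, no trend, array weights, the conflicting strain label followed, each pool left out in turn, and, chosen after seeing the data, both day 5 pools labelled day 4 left out together.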

Additional observations from a re-analysis of the deposited data

How the results depend on the processing

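Under 21 alternative settings the day 5 values of atf3 (log2 1.44 to 1.88), clu (1.73 to 2.12), socs3b (1.27 to 1.68), stat3 (1.03 to 1.32) and vmp1 (0.60 to 0.71) kept their direction and call. Without both pools labelled day 4 they were 1.68, 2.10, 1.68, 1.29 and 0.63. The choice of these genes by the same comparison favours calls that hold, so this too is a description. Members called were 0 in every setting on day 3 and 5 to 7 on day 5 (6 as reported). Of 24 values of list, marker and similar-profile genes past the threshold, 12 passed in every setting that tested them. Among the 12 are the day 5 values of serpinh1b, kiaa0232, ccng1, anxa2a, zgc:174888 and hsc70, which their choice by profile favours. The list and marker genes among them were dusp2, gadd45aa, psat1, fabp10a, bfsp2 and stmn1b, all on day 5. Of all probe sets, the day 3 count of 240 became 505 with array weights, 0 with sibling replicate 2 counted as mutant, 342 with the replicate block and 48 to 398 without 1 pool. The day 5 count of 1701 was 1849 with the block and 1048 to 2046 without 1 pool. For the difference between days, 0 probe sets and 0 of the 9 genes passed as reported. The counts were 8 and 2 with a pseudocount of 50% of the median, 3 and 1 with the lowest 50% left out, 6 and 2 with array weights, 10 and 2 with the block, 27 and 2 without both pools labelled day 4, and 0 to 51 and 0 to 2 without 1 pool. For siblings on day 5 against day 3, 2150 probe sets became 3661 with array weights, 275 with sibling replicate 2 of day 3 counted as mutant, 2354 with the block and 379 to 2387 without 1 pool. Of the 9 genes, 1 passed there as reported, 2 with a pseudocount of 1% or the lowest 50% left out (vmp1 and clu), 2 with median centring or quantile normalization (clu and stat3, vmp1 lost), 3 with array weights, 0 without a filter, without the trend or with the strain label followed, and 0 to 2 without 1 pool. In that comparison differences near 0 changed sign. With median centring and quantile normalization socs3b was 0.0228 and 0.00772, and junba 0.0186 and 0.0188. Without both pools labelled day 4 junba was 0.0177 and egr1 0.0353, and with the strain label followed egr1 was 0.0895. Without 1 pool the ranges were −0.242 to 0.827 for fosab, −0.208 to 0.155 for junba, −0.405 to 0.0895 for egr1, −0.0890 to 0.0410 for socs3b and −0.0369 to 0.325 for junbb. Median centring moved the share of higher calls to 66.7% on day 3 (57.1% as reported), 54.3% on day 5 (44.3%) and 54.7% between the sibling days (45.4%). No scaling moved the median of all probe sets by more than 0.1. Beside calls given in the report, the block ended that of gadd45bb on day 3 (adjusted p = 0.0567), made map1lc3b pass as higher on day 3 (0.0258) and egr4 as lower on day 5 (0.0497), and changed no other day 3 or day 5 call of a pathway gene. The causes were not tested. Without detection calls, signals near background could not be set apart, and sart3 in 2 mutant pools lay under the filter limit.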
